A study of Mus musculus with 4 samples.

Results

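The nuclear genes of oxidative phosphorylation were followed through the cell types of the young mouse heart. The set was chosen by gene symbol: names beginning with Ndufa, Ndufb, Ndufc, Ndufs, Ndufv, Uqcr, Cox4i, Cox5, Cox6, Cox7, Cox8 or Atp5, together with Sdha, Sdhb, Sdhc, Sdhd and Cyc1, without pseudogenes. This gave 94 of the 31053 genes in the count tables (93 symbols, because Atp5o stands on 2 gene IDs). By role, 36 encode subunits of complex I, 4 of complex II, 9 of complex III, 17 of complex IV and 16 of complex V, the ATP synthase. A further 8 are the complex I assembly factors Ndufaf1 to Ndufaf8, 2 are the pair Ndufa4 and Ndufa4l2, and Cox7a2l and Atp5s stand alone.

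Oxidative phosphorylation passes electrons from NADH and succinate through complexes I to IV to oxygen, and the proton gradient built on the way drives ATP synthesis by complex V. Most subunits come from nuclear genes, while a small core comes from the mitochondrial genome, so both sets of transcripts are needed to build the machine. Several complex IV subunits exist as a ubiquitous form and a second form tied to muscle or to low oxygen. Cox4i2 is known as the oxygen-linked isoform of Cox4i1, and Ndufa4l2 as a relative of Ndufa4 that is induced by hypoxia, while NDUFA4, first counted with complex I, is known as a subunit of complex IV.

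The hearts came from mouse offspring aged 6 weeks. While pregnant and nursing, their dams ate chow with much resistant starch, a fibre that feeds gut bacteria (high-fibre, 2 libraries), or chow with little of it (control-diet, 2 libraries). All offspring in both groups ate standard chow from 3 weeks of age. Hearts were digested by perfusion with collagenase IV and dispase II, live, metabolically active and nucleated cells were sorted, and single-cell 3′ libraries were made with 10x Genomics chemistry. The labels give no strain, no sex and no number of animals per library, so p-values here speak to variation among libraries only, and that variation may be technical. A 3′ library counts 1 tag (unique molecular identifier, UMI) per captured transcript, so levels of different genes are given without scaling to length.

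Of 26765 barcodes, 21581 held at least 1000 UMIs and at most 20% UMIs of mitochondrial genes. The libraries held 56582577 and 69600492 UMIs (high-fibre) and 59317334 and 27577599 UMIs (control-diet), and their kept cells had median depths of 7508 and 7544 UMIs (high-fibre) and 8901 and 8075 UMIs (control-diet). A cell was placed in a class when it carried at least 3 of 7 marker genes of that class and at least 2 more than of any other, which placed 20110 cells (93.2%). No doublet caller was run, and the gate leaves out only cells whose 2 best classes come close. Of the 998 pericytes 564 (56.5%) carried 3 or more markers of another class, most often of fibroblasts (426 cells), against 7.99% of T cells to 14.6% of macrophages among the other tested classes. The part of doublets in the values below was not tested. Across libraries, 99 barcode sequences occurred in at least 2 libraries (0.462% of kept barcode sequences). No member is among the markers. Genes that set each class apart included its own markers and none of another class. Among them were Vtn, Kcnj8, Abcc9 and Rgs5 in pericytes, Myh11 and Acta2 in smooth muscle cells, and Cdh5 and Flt1 in endothelial cells. Dpt and Dcn were among them in fibroblasts, and C1qa and Mrc1 in macrophages. The genes named here are markers of the gate, so their lead follows from the gate and is no separate support for the classes. Only 8 cells passed the cardiomyocyte gate, so the muscle cells of the heart, the richest in mitochondria, are hardly present and are not described as a class. Tests used the 6 classes that had 20 cells or more in each of the libraries: 6517 fibroblasts, 7372 endothelial cells, 998 pericytes, 3173 macrophages, 902 B cells and 413 T cells. Smooth muscle cells (134), monocytes (109), neutrophils (137), NK cells (172) and Schwann cells (139) are described without a test.

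Mural cells, the smooth muscle cells and pericytes that wrap vessels, gave the largest part of their transcripts to these genes. The members made up 4.24% ± 0.320 of all UMIs in smooth muscle cells and 2.92% ± 0.153 in pericytes (SD, n = 4 libraries each, here and in the next sentences). NK cells (2.06% ± 0.178), Schwann cells (1.95% ± 0.170), monocytes (1.93% ± 0.0569), endothelial cells (1.87% ± 0.0880) and fibroblasts (1.76% ± 0.0517) followed, and neighbours among these 5 did not differ beyond their spread. T cells (1.59% ± 0.0611), macrophages (1.56% ± 0.0815) and B cells (1.42% ± 0.0919) lay lower, again with neighbours that overlapped, and neutrophils were lowest at 0.985% ± 0.100. In pericytes the share was 2.73% and 3.06% in the high-fibre libraries and 2.86% and 3.03% in the control-diet libraries. Each pericyte value was above every value of NK cells, the highest of which was 2.26%, and below every value of smooth muscle cells, the lowest of which was 3.95%.

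**Figure D1:**
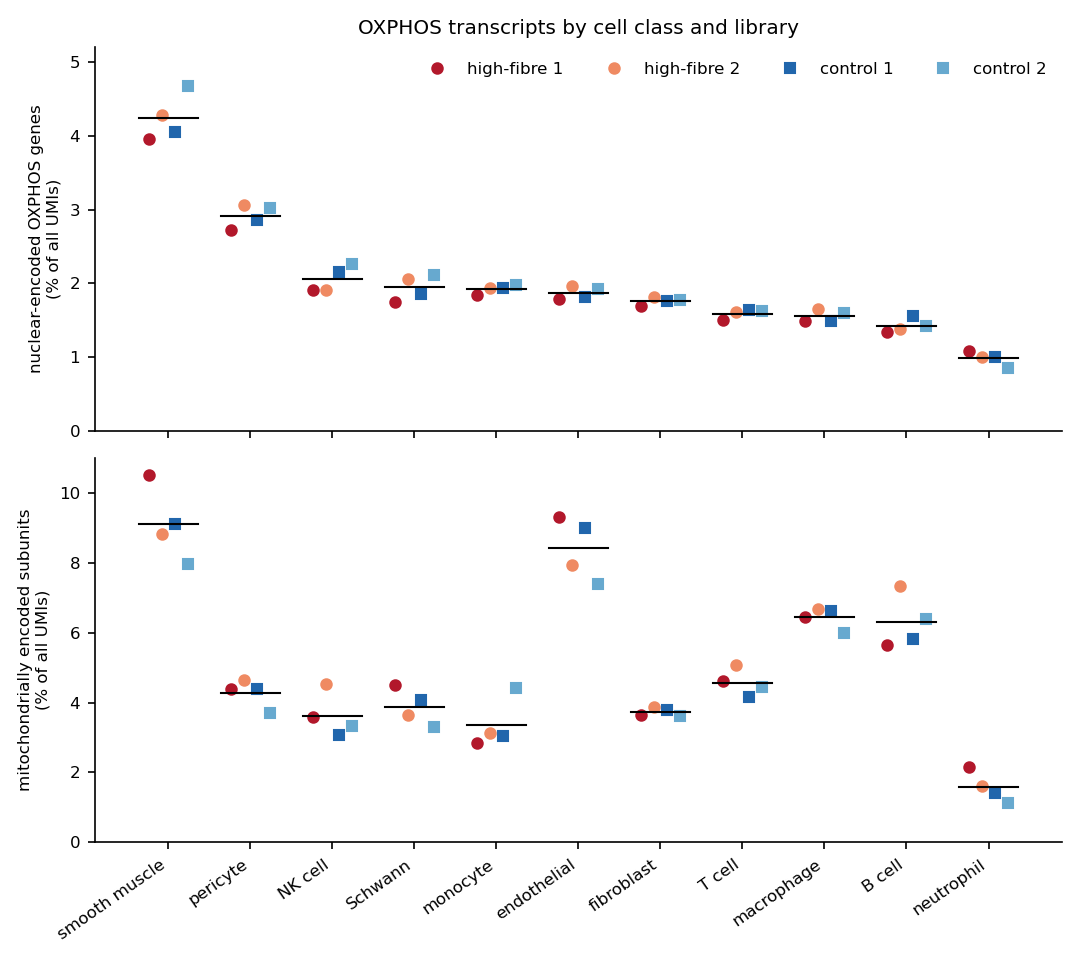
Share of all UMIs (percent, y axes) taken in each cell class (x axis) by the nuclear oxidative phosphorylation genes, above the share of the mitochondrially encoded subunits, with 1 point per library and black bars for means. Smooth muscle cells (mean 4.24%) and pericytes (mean 2.92%) lead the upper panel, while smooth muscle (mean 9.11%) and endothelial cells (mean 8.41%) lead the lower one.

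Smooth muscle cells and then pericytes had the highest mean share of each complex from I to V among the 11 classes. Complex I took 1.22% ± 0.0893 of UMIs in smooth muscle cells and 0.828% ± 0.0507 in pericytes, against 0.584% ± 0.0214 in fibroblasts and 0.409% ± 0.0238 in B cells. Complex III took 0.483% ± 0.0192 in smooth muscle cells and 0.284% ± 0.0122 in pericytes, against 0.182% ± 0.00339 in fibroblasts, and complex V took 1.07% ± 0.106 in smooth muscle cells and 0.647% ± 0.0345 in pericytes, against 0.462% ± 0.0148 in fibroblasts. Complex IV, which includes Cox4i2, took 1.15% ± 0.104 in smooth muscle cells and 0.779% ± 0.0396 in pericytes, against 0.390% ± 0.00846 in fibroblasts. Over the 6 tested classes the most abundant members were Ndufa13 (331 CPM) and Ndufa2 (286 CPM) in complex I, Sdhb (116 CPM) and Sdha (92.2 CPM) in complex II, and Uqcrh (520 CPM) and Uqcrb (315 CPM) in complex III. In complex IV they were Cox8a (712 CPM) and Cox4i1 (711 CPM), and in complex V Atp5e (576 CPM) and Atp5b (470 CPM). Here CPM means UMIs per 1000000 UMIs of a class. Without Cox4i2 and Ndufa4l2 the whole set still made up 4.02% ± 0.309 of UMIs in smooth muscle cells and 2.47% ± 0.133 in pericytes.

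Transcripts of the mitochondrial genome did not follow the same order. Per UMI of a nuclear member there were 4.52 ± 0.678 mitochondrially encoded UMIs in endothelial cells, 4.44 ± 0.642 in B cells and 4.15 ± 0.314 in macrophages. Fibroblasts held 2.12 ± 0.0534, smooth muscle cells 2.17 ± 0.399 and pericytes 1.47 ± 0.170, the lowest mean of the 11 classes. Pericytes had 1.61 and 1.52 in the high-fibre libraries and 1.53 and 1.22 in the control-diet libraries, against 3.84 to 5.23 in endothelial cells, so the 2 classes did not overlap. The mitochondrial share was also used to filter cells, and the part of that filter in this ratio was not tested.

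Pericytes carried other isoforms than the rest of the tested classes: they were rich in Cox4i2 and Ndufa4l2 and nearly without Ndufa4. Cox4i2, on mm10 chr2:152754173-152765037 (plus strand), had 1795 and 1943 CPM in the high-fibre libraries and 1856 and 1795 CPM in the control-diet libraries. Smooth muscle cells averaged 883 CPM, fibroblasts 23.4 CPM and endothelial cells 14.7 CPM, while macrophages, B cells and T cells averaged below 2 CPM. Cox4i2 supplied 66.7% and 66.9% of the UMIs of the Cox4i1 and Cox4i2 pair in the high-fibre pericytes and 66.3% and 67.9% in the control-diet pericytes. The exact binomial 95% intervals of the 4 pericyte shares all overlapped, between 64.6% and 70.1%, and these intervals cover counting error only. The pair share was 38.1% in smooth muscle cells, 3.38% in fibroblasts, 1.88% in endothelial cells and 0.198% in macrophages (means of 4 libraries).

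Ndufa4l2, on chr10:127514967-127517154 (plus strand), had 2438 and 2835 CPM in high-fibre pericytes and 2566 and 2678 CPM in control-diet pericytes, and its levels in smooth muscle cells (1276 CPM on average) and fibroblasts (146 CPM) came next. Its partner Ndufa4, on chr6:11900292-11907497 (minus strand), had 11.02 and 19.0 CPM in high-fibre pericytes and 14.1 and 9.11 CPM in control-diet pericytes, a total of 63 UMIs. Ndufa4 averaged 532 CPM in endothelial cells, 476 CPM in smooth muscle cells, 341 CPM in T cells, 340 CPM in fibroblasts, 329 CPM in macrophages and 260 CPM in B cells, and no pericyte library came near those levels. Of the UMIs of this pair, Ndufa4l2 supplied 99.5% in pericytes, 72.7% in smooth muscle cells, 29.9% in fibroblasts, 1.75% in endothelial cells and 0.577% in macrophages.

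The same difference appeared cell by cell. Of 998 pericytes, 903 carried Ndufa4l2 UMIs alone, 47 carried both genes, 3 carried Ndufa4 alone and 45 neither. Smooth muscle cells mostly carried both (99 of 134). So did fibroblasts, with 3892 of 6517 cells (59.7%) holding both at median depths of 12060 to 16320 UMIs, against 2.40% of macrophages at 9702 to 13220 UMIs. All cells were then thinned to 1000 UMIs. At this depth 83.6% of pericytes, 49.3% of smooth muscle cells, 10.0% of fibroblasts and 0.221% of macrophages held Ndufa4l2 alone. Both genes were seen in 1.10%, 19.4%, 3.05% and 0.063% of these classes, and neither in 14.8%, 20.9%, 62.9% and 73.5%. Holding both was thus the most common state of smooth muscle cells and fibroblasts at full depth only.

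Against the mean of the other 5 tested classes, edgeR's quasi-likelihood test (class fit with library as a term, TMM scaling, Benjamini-Hochberg adjustment over 12707 genes) called all 3 genes in pericytes. The log2 fold was 8.33 ± 0.122 (SE) for Cox4i2 (adjusted p = 1.07e-21), 7.78 ± 0.112 for Ndufa4l2 (adjusted p = 2.45e-21) and −5.08 ± 0.108 for Ndufa4 (adjusted p = 5.25e-30). Cox4i1, the ubiquitous partner, was not called on this scale, at 0.02 ± 0.0567 (adjusted p = 0.785), although pericytes had the highest plain level of the 6 classes (913 CPM on average), and it was called higher with library totals alone (0.45, adjusted p = 1.71e-09, edgeR). A gate that asked for 4 own markers and at most 1 of another class left 83 pericytes, and their folds were 8.34 for Cox4i2, 7.26 for Ndufa4l2 and −5.74 for Ndufa4. The ratio of Ndufa4l2 to the pericyte marker Rgs5 was 0.226 in pericytes, 0.0787 in endothelial cells and 0.238 in macrophages, but 14.2 in fibroblasts. Rgs5 itself had 11630 CPM in pericytes, 119.7 CPM in endothelial cells and 10.3 CPM in fibroblasts. The part of free RNA in the levels outside pericytes was not tested.

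**Figure D2:**
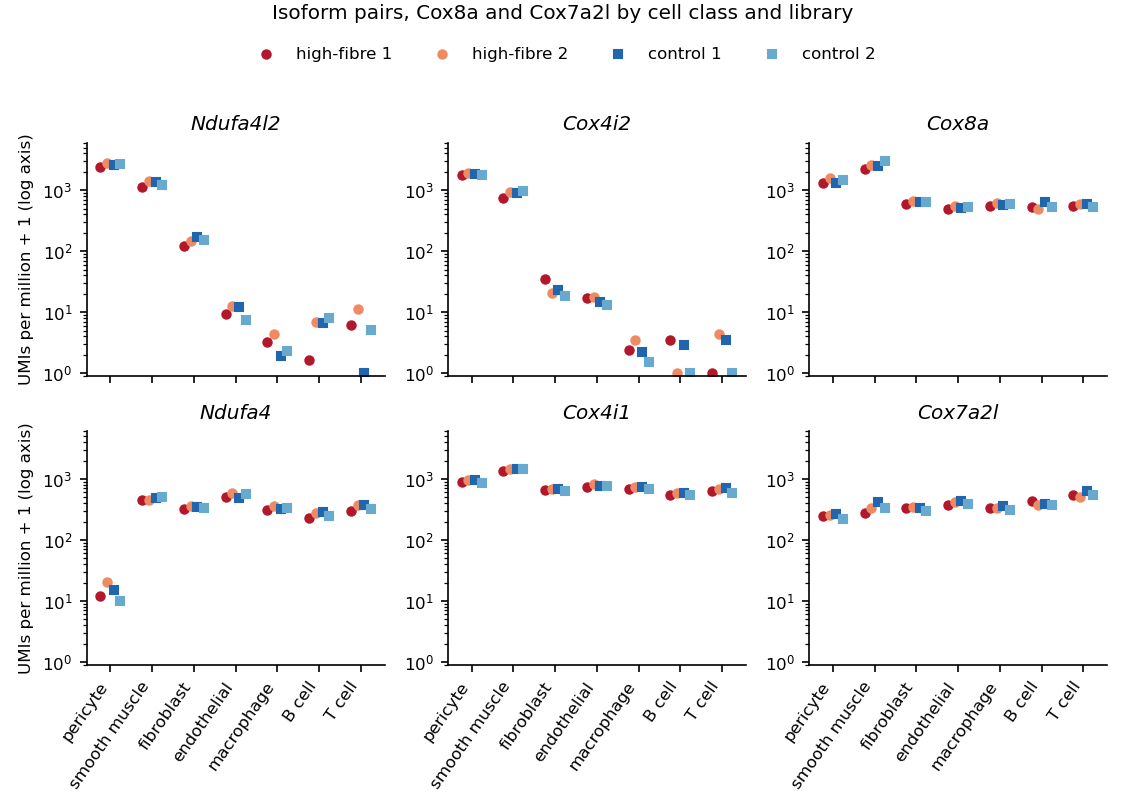
Levels of Ndufa4l2, Cox4i2 and Cox8a (upper row) and of Ndufa4, Cox4i1 and Cox7a2l (lower row), as CPM + 1 on a logarithmic axis, by cell class with 1 point per library. Ndufa4l2 (mean 2629 CPM) and Cox4i2 (mean 1847 CPM) are highest in pericytes, where Ndufa4 (mean 13.3 CPM) is lowest, and smooth muscle cells hold both partners of each pair.

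The RefSeq promoter of Ndufa4 (GRCm38.p6, chr6:11907401-11907700, minus strand, 250 bases before to 50 after the start, 5′ to 3′) is shown because this gene had the lowest pericyte fold of the set. It held none of 3 motifs searched on both strands: the NRF1 motif (GCGCA, any base, GCGC), the ETS core CCGGAA and the HIF core ACGTG, so no base is in capitals.
Ndufa4: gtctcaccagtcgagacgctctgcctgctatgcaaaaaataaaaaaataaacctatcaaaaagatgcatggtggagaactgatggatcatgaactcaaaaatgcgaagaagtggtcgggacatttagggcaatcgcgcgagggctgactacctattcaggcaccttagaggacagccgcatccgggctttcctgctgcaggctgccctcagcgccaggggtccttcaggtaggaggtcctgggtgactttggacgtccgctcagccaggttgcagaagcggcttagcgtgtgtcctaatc

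The counts over the whole set, in this paragraph, include Cox4i2, Ndufa4l2 and Ndufa4. Pericytes were the highest of the 6 tested classes in plain CPM for 72 of the 91 members tested. In every library they were highest for 61. That is 79.1% and 67% of the members, against 33.3% and 18.2% of all 12707 genes. The 3 others were not tested: Cox8c and the second Atp5o ID had no UMI in the described classes and Cox7b2 had 1. In the class fit, 57 members were called higher in pericytes (62.6%, against 34.4% of all genes called higher) and 12 lower (13.2%, against 25.9%). The median log2 fold was 0.30 for the members and 0.05 for all genes. By complex, 27 of 36 complex I subunits were called higher and 4 lower, as were 4 and 0 of 4 in complex II, 8 and 1 of 9 in complex III, 5 and 1 of 15 in complex IV, and 8 and 4 of 15 in complex V.

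These counts depended on which pericytes were counted and on the scale. Under the stricter gate 6 members were called higher and 11 lower of 87 tested (6.90% and 12.6%, against 11.2% and 8.78% of all genes), with medians of −0.03 for the members and −0.21 for all genes. The 83 cells it kept, 5 to 34 per library, had median depths of 1899 to 3689 UMIs and 16.0% of UMIs from the nuclear transcript Malat1. When libraries were scaled by their totals alone, a scale chosen after the data were seen, 79 members were called higher and 4 lower (86.8% and 4.4%, against 53.4% and 14.4% of all genes). The median on that scale was 0.73 for the members and 0.48 for all genes.

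Among the members called in pericytes, complex I gave Ndufs7, an iron-sulfur subunit of the peripheral arm, and Ndufs5, an accessory subunit of the membrane arm. Ndufs7 was higher at a log2 fold of 0.97 ± 0.0584 (adjusted p = 1.35e-16, edgeR), and Ndufs5 at 0.92 ± 0.0511 (adjusted p = 1.52e-17, edgeR). The assembly factor Ndufaf4 was higher at 1.11 ± 0.0988, and in complex II the membrane anchor Sdhc at 0.81 ± 0.0782. In complex III, cytochrome c1 (Cyc1) was higher at 0.77 ± 0.0820 and the hinge protein Uqcrh lower at −0.41 ± 0.0645, but Uqcrh stood at 0.02 when only library totals were used. Under the stricter gate Ndufs7 was still called (0.76), while Ndufs5 (0.49, adjusted p = 0.0962), Ndufaf4 (0.92, adjusted p = 0.0632), Cyc1 (0.52, adjusted p = 0.214) and Sdhc (0.16, adjusted p = 0.844) were not (edgeR). These members were picked as examples after their values were seen.

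Cox8a, the ubiquitous form of the small subunit VIII of complex IV, had 1297 and 1564 CPM in high-fibre pericytes and 1326 and 1445 CPM in control-diet pericytes. The other 5 tested classes averaged 522 to 640 CPM, so every pericyte library was above them, and smooth muscle cells were higher still at 2563 CPM. The log2 fold was 0.87 ± 0.0614 (adjusted p = 1.20e-14, edgeR), but 0.36 under the stricter gate (adjusted p = 0.0520). The RefSeq promoter of Cox8a (GRCm38.p6, chr19:7217567-7217866, minus strand, 5′ to 3′) is shown because Cox8a had the highest mean level of the set and held 3 ETS cores, in capitals.
Cox8a: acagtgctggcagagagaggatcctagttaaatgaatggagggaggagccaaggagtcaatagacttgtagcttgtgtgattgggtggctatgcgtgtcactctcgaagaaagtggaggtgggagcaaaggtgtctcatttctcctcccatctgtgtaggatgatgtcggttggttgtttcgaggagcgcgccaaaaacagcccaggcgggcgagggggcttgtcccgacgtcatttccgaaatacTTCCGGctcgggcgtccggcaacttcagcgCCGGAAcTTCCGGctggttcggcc

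In complex V, the catalytic beta subunit Atp5b had a log2 fold of 0.80 ± 0.0627 in pericytes, while the small epsilon subunit Atp5e had −0.78 ± 0.0648. Under the stricter gate Atp5b was not called (0.17, adjusted p = 0.512, edgeR), and Atp5e stood at −1.38. The c-ring of the ATP synthase is encoded by 3 genes for 1 mature protein, and these parted: Atp5g3 was higher (0.75 ± 0.0584), Atp5g2 lower (−0.87 ± 0.0624), and Atp5g1 was not called (−0.14). Atp5g3 had 293 and 382 CPM in high-fibre pericytes and 349 and 433 CPM in control-diet pericytes, while its averages in the other tested classes lay between 127 and 193 CPM. Atp5g2 had 216 and 267 CPM in high-fibre pericytes and 267 and 281 CPM in control-diet pericytes, while the other tested classes averaged between 248 CPM (fibroblasts) and 455 CPM (T cells). The lower calls of Atp5g2 and of Cox7a2l, a factor that joins complexes III and IV into supercomplexes, held under the stricter gate at −1.53 and −1.67, while Atp5g3 was then not called (0.26, adjusted p = 0.550, edgeR). Cox7a2l had 247 and 257 CPM in high-fibre pericytes and 266 and 217 CPM in control-diet pericytes, while other classes averaged between 326 CPM (fibroblasts) and 560 CPM (T cells), and its log2 fold was −1.10 ± 0.0626. Cox7a2, the ubiquitous form of subunit VIIa, was higher at 0.49 ± 0.0494, and was not called under the stricter gate (0.18).

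**Figure D3:**
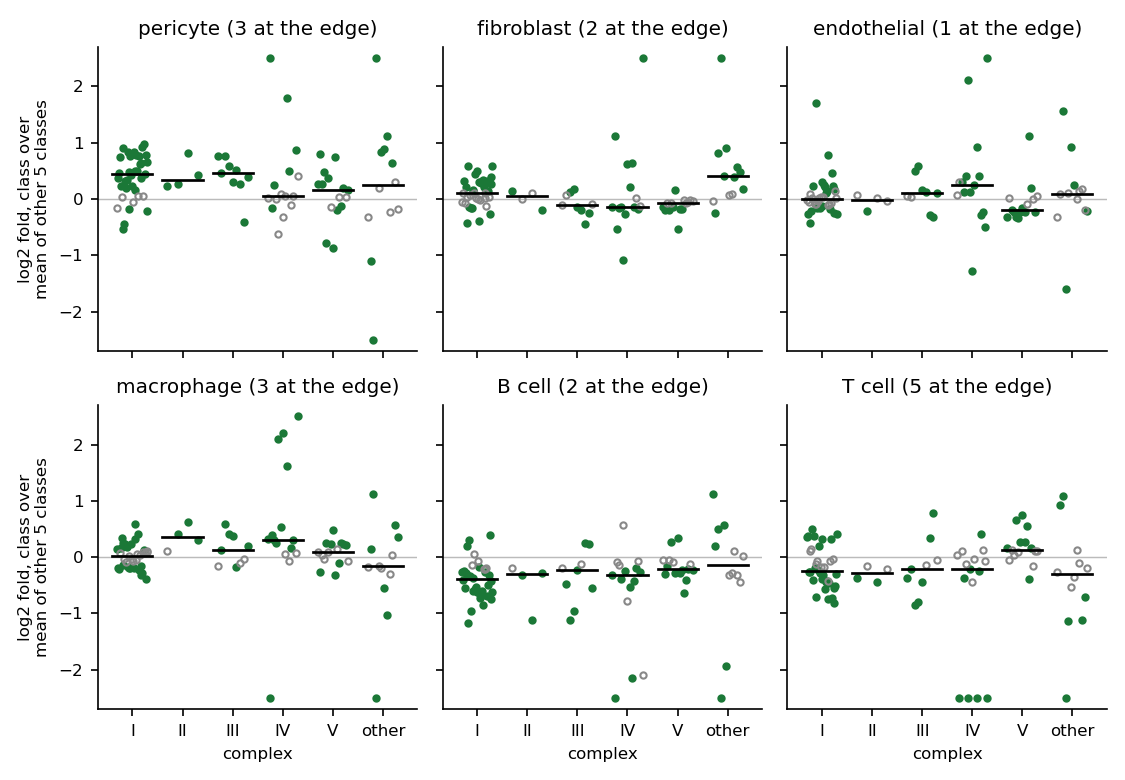
Log2 fold of each member in each tested class against the mean of the other 5 classes, grouped by complex. Filled points have an adjusted p under 0.05 (edgeR), black bars are medians, and values beyond 2.5 in either direction are drawn at the edge, among them Cox4i2 (8.33), Ndufa4l2 (7.78) and Ndufa4 (−5.08) in pericytes.

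Pericytes also differed among themselves. Malat1, a transcript that stays in the nucleus, made up 10.6% of pericyte UMIs on average, against 3.80% in fibroblasts and 3.05% in endothelial cells. When the pericytes of a library were put into quartiles by their Malat1 share, members made up 3.52% and 3.98% of the remaining UMIs in the lowest quartile of the high-fibre libraries and 3.58% and 3.80% in that of the control-diet libraries. The highest quartile held 2.42% and 2.12% in the high-fibre libraries and 2.49% and 2.86% in the control-diet libraries, and the 2 quartiles did not overlap. In fibroblasts the same quartiles held 1.92% to 2.06% and 1.58% to 1.71%. They held 1.67% to 1.90% and 1.33% to 1.42% in macrophages, and 2.03% to 2.21% and 1.66% to 1.82% in endothelial cells. Median depths in the lowest pericyte quartile were 4030 and 4310 UMIs (high-fibre) and 4660 and 4810 UMIs (control-diet). In the highest pericyte quartile they were 2610 and 2330 UMIs (high-fibre) and 4060 and 4570 UMIs (control-diet). Cox4i2 had 2160 to 2520 CPM in the lowest pericyte quartile and 965 to 1320 CPM in the highest. At 1000 UMIs per cell, the variance of the member count over cells was set against that of binomial sampling. It was 3.79 to 5.46 times as large in pericytes and 1.58 to 1.99 times in fibroblasts. Smooth muscle cells had 3.345 to 6.082 times, NK cells 1.933 to 4.996 times and T cells 2.083 to 4.036 times, so pericytes were not alone in this. The part of the Malat1 share in the pericyte results was not tested.

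**Figure D4:**
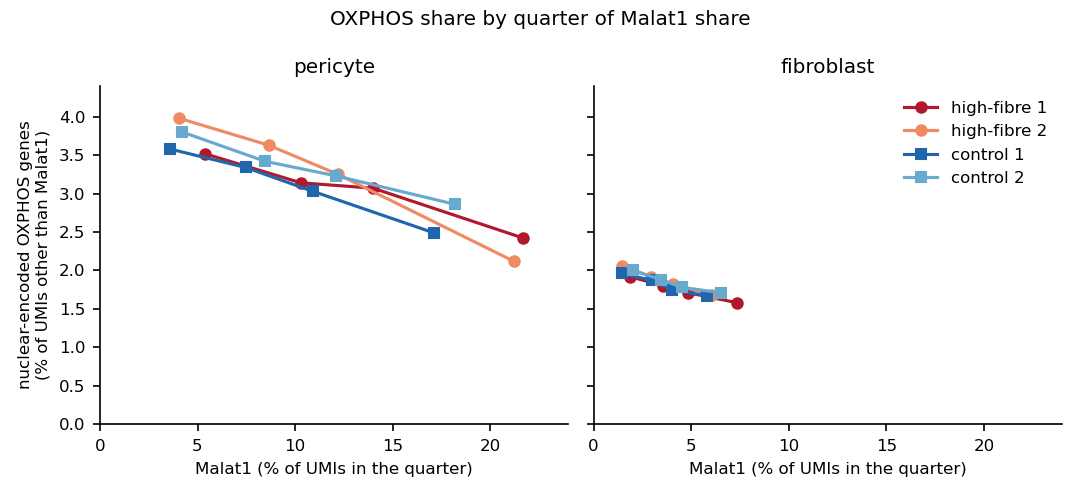
Share of members among UMIs other than Malat1 (percent, y axis) in 4 quartiles of cells against the Malat1 share of each quartile (percent, x axis), with 1 line per library, in pericytes and fibroblasts. In pericytes the share is 3.52% to 3.98% in the lowest quartile and 2.12% to 2.86% in the highest.

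In endothelial cells, which line the vessels, single subunits stood high while the set did not: 30 members were called higher (33.0%, against 38.5% of all genes) and 27 lower (29.7%, against 26.9%), with medians of 0.02 for the members and 0.07 for all genes. With library totals alone the counts were 37 and 21 (40.7% and 23.1%, against 43.4% and 22.8% of all genes). Ndufa8, a complex I accessory subunit with paired cysteine motifs, on chr2:36036326-36049406 (minus strand), had 286 and 357 CPM in high-fibre endothelial cells and 326 and 316 CPM in control-diet endothelial cells. Averages elsewhere were 164 CPM in pericytes, 107 CPM in fibroblasts, 90.5 CPM in macrophages, 64.5 CPM in T cells and 59.6 CPM in B cells, so no endothelial library overlapped them. The log2 fold was 1.71 ± 0.0535 (adjusted p = 3.15e-25, edgeR).

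Atp5j, coupling factor 6 of the ATP synthase stalk, on chr16:84827866-84835625 (minus strand), had 660 and 749 CPM in high-fibre endothelial cells and 720 and 733 CPM in control-diet endothelial cells. Its log2 fold was 1.12 ± 0.0427 (adjusted p = 1.15e-22, edgeR), while 9 of the 15 tested complex V members were called lower in the same cells and Atp5j and Atp5j2 (0.20) alone were called higher. Pericytes averaged 465 CPM of Atp5j and B cells 238 CPM, and smooth muscle cells reached the endothelial level with 742 CPM. In complex IV, 9 of 15 members were called higher in endothelial cells and 4 lower, with Cox8a at −0.50 ± 0.0662. Promoters of both genes from RefSeq (GRCm38.p6, 5′ to 3′) are shown for comparison with those above: Ndufa8 (chr2:36049289-36049588, minus strand) held 1 NRF1 motif and Atp5j (chr16:84835576-84835875, minus strand) 1 ETS core, both in capitals, the letters on the printed strand being those of the motif or of its reverse complement.
Ndufa8: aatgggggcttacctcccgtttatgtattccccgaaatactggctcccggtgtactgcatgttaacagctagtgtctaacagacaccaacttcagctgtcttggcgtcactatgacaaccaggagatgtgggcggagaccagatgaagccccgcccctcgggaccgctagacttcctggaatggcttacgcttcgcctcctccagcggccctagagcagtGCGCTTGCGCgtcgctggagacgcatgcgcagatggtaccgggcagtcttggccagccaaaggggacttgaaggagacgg
Atp5j: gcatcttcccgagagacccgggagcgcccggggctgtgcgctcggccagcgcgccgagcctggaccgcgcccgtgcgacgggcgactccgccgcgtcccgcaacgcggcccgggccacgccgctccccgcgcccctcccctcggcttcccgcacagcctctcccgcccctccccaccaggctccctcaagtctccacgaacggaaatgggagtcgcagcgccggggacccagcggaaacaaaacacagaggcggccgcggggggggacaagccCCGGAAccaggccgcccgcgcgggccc

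The letters of these motifs were more common in members than in promoters at large. Of the 93 symbols, 76 matched the RefSeq promoter table. Cox4i2 and Ndufa4l2 were among those that did not, so no motif, the HIF core included, was searched in their promoters. The matched symbols had 81 promoters. The NRF1 motif, bound by a known activator of mitochondrial genes, was present in 20 of these (24.7%), against 4.60% of all 32851 promoters of the same length. The ETS core was present in 28 (34.6%), against 14.9% of all, and the HIF core in 20 (24.7%), against 19.6%. By gene, 6 of 14 complex V members, 7 of 32 complex I members and 1 of 12 complex IV members held the NRF1 motif. CG-rich promoters hold such letters more often, and base composition was not matched.

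Fibroblasts, the matrix-producing cells, had 34 members called higher (37.4%, against 43.5% of all genes) and 27 lower (29.7%, against 30.7%), or 40 and 18 with library totals alone (44.0% and 19.8%, against 46.0% and 28.2% of all genes). The higher calls were thus no more frequent than over all genes. Of the complex I subunits 17 of 36 were higher and 6 lower, and of the complex I assembly factors 6 of 8 were higher and 0 lower. Complexes IV and V had 5 higher and 8 lower of 15, and 1 higher and 7 lower of 15, but with library totals alone complex IV was even at 5 and 5 and complex V had 1 and 5. Ndufa4l2 had 123 and 145 CPM in high-fibre fibroblasts and 167 and 149 CPM in control-diet fibroblasts, and its log2 fold against the other classes was 3.15 ± 0.148. Cox4i2 had 34.5 and 19.3 CPM in high-fibre fibroblasts and 22.0 and 17.7 CPM in control-diet fibroblasts, at 1.12 ± 0.262. Cox5a, which lies beside subunit IV in the complex, was lower at −0.54, as was Atp5g2 at −0.54 ± 0.0515. Ndufa4 was called higher in fibroblasts (0.82) and B cells (0.49) against a mean that includes the pericytes. With pericytes left out of that mean, a choice made after the data were seen, the folds were −0.20 in fibroblasts and −0.55 in B cells.

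Macrophages, the resident phagocytes, had 40 members called higher (44.0%, against 37.7% of all genes) and 20 lower (22.0%, against 26.9%), and this balance depended on the scale. The counts were 34 higher and 27 lower with DESeq2 size factors (37.4% and 29.7%, against 35.8% and 29.7% of all genes). They were 12 and 57 with library totals alone (13.2% and 62.6%, against 26.9% and 42.7%), where the median of all genes moved to −0.28 and that of the members to −0.22. Complex II stood at 3 of 4 higher on the main scale, with Sdhc at 0.62 ± 0.0606, while the assembly factor Ndufaf4 was lower at −1.03 ± 0.0890 and Ndufa4l2 at −3.72 ± 0.423. Cox6b2, known as the testis form of subunit VIb, had 9.70 and 11.7 CPM in high-fibre macrophages and 10.95 and 9.63 CPM in control-diet macrophages. It averaged 1.77 CPM in endothelial cells and 5.25 CPM in fibroblasts, and its log2 fold in macrophages was 2.21 ± 0.183 (adjusted p = 6.14e-13, edgeR).

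The heart and muscle isoforms Cox6a2, Cox7a1 and Cox8b were low in every tested class. Cox6a2 was highest in endothelial cells, with 9.87 and 8.85 CPM in the high-fibre libraries and 10.7 and 9.22 CPM in the control-diet libraries, and macrophages averaged 7.62 CPM. Cox8b averaged 7.12 CPM in endothelial cells and had no UMI in T cells or smooth muscle cells, and T cells held 1 UMI of Cox6a2 and 2 of Cox7a1, so fitted folds of these genes between classes are not given. Ratios to myoglobin (Mb) were 0.295 for Cox6a2, 0.218 for Cox8b and 0.266 for Cox7a1 in endothelial cells, and 0.467, 0.265 and 0.628 in macrophages. They were 0.288, 0.175 and 0.262 in the 8 cells of the cardiomyocyte gate, which are 1 to 3 per library. The cell of the first high-fibre library held no UMI of these isoforms. The cardiomyocyte marker Myh6 had a ratio of 0.235 in endothelial cells and 0.0868 in the 8 cells. The ratio of Cox7a1 was 2.08 in fibroblasts and 2.14 in pericytes, and that of Cox8b was 1.29 in fibroblasts. Pericytes had 13.4 and 18.3 CPM of Cox7a1 in the high-fibre libraries and 18.5 and 21.3 CPM in the control-diet libraries, above the averages of 10.3 CPM in macrophages, 8.68 CPM in endothelial cells and 7.22 CPM in fibroblasts. How much cardiomyocyte RNA adds to these levels was not tested.

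B and T cells had more members called lower than higher. In B cells 55 members were called lower (60.4%, against 28.5% of all genes) and 11 higher (12.1%, against 25.2%), with medians of −0.28 for the members and −0.18 for all genes. The lower calls took in 27 of 36 complex I subunits, and Uqcr11, a small subunit of complex III, stood at −1.12 ± 0.0729 and Sdhc at −1.12 ± 0.120. Higher in B cells were Atp5s, an ATP synthase coupling factor, at 1.12, and the assembly factor Ndufaf1 at 0.58 ± 0.214. In T cells 38 members were called lower (41.8%, against 28.8%) and 20 higher (22.0%, against 21.6%), with medians of −0.18 for the members and −0.27 for all genes, and 10 higher and 57 lower with library totals alone (11% and 62.6%, against 17.6% and 36.1%). T cells had the highest Cox7a2l of the 6 classes, with 548 and 504 CPM in the high-fibre libraries and 643 and 542 CPM in the control-diet libraries, at a log2 fold of 0.92 ± 0.0595. They also had the highest Uqcrh (0.78 ± 0.0623) and Atp5g2 (0.74 ± 0.0627), and 7 of 15 complex V members were higher against 1 lower, or 3 and 3 with library totals alone. Ribosomal protein genes took 34.3% of UMIs in T cells and 24.5% in B cells, against 5.89% in pericytes. With these and the mitochondrial genes taken out of the totals, the member share was 2.61% in T cells and 2.06% in B cells, against 3.25% in pericytes.

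Some members lie on the same strand as another annotated gene and can share reads with it, among them Ndufa13 with Yjefn3, Cox4i1 with Gm20388, Ndufb8 with Gm20538, Ndufb9 with Gm49356, Ndufb2 with Gm42420, Ndufc2 with Gm16053 and the 2 Atp5o IDs with each other. Their values are uncertain to that extent.

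Neighbouring pathways were read from lists of their own. Over all genes 34.4% were called higher in pericytes and 25.9% lower. In pericytes 11 of 13 genes of the tricarboxylic acid cycle were called higher and 0 lower, led by Idh3a, a subunit of isocitrate dehydrogenase (log2 fold 0.76). Fatty acid oxidation had 11 higher and 1 lower of 15, led by the dehydrogenase Acadm (0.73) and the carnitine transferase Cpt2 (0.68), and glycolysis had 10 higher and 3 lower of 17, with lactate dehydrogenase Ldhb at 4.37 and hexokinase Hk2 at −2.92. Assembly factors outside the naming rule had 11 higher and 6 lower of 33, with Uqcc1 at 1.18 and Coa5 at −1.61. The regulators of mitochondrial biogenesis had 3 higher and 2 lower of 13, with the coactivator Ppargc1b at 3.70 and the nuclear receptor Esrra at 1.16. The higher calls of these assembly factors and regulators were no more frequent than over all genes. The 13 mitochondrially encoded subunits went the other way, with 0 higher and 12 lower, led by mt-Nd4 (−1.04) and mt-Nd4l (−0.94). The same 13 genes were all called higher in endothelial cells (against 38.5% of all genes) and all called lower in fibroblasts (against 30.7% of all genes).

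The maternal diet question was whether offspring of high-fibre dams differ in these genes within a cell class. No member was called in any of the 6 tested classes by edgeR's quasi-likelihood test. Over all genes 0.0882% were called in fibroblasts, 0.193% in endothelial cells, 0.129% in pericytes, 0% in macrophages, 0.0277% in B cells and 0.0340% in T cells. At an unadjusted p under 0.05 there were 1 member of 91 in fibroblasts, 1 of 91 in endothelial cells, 0 of 88 in pericytes, 2 of 91 in macrophages, 1 of 82 in B cells and 1 of 79 in T cells. The share of all genes under that p is not given, so these counts are not read as a result about the members. DESeq2's Wald test called 0 members in each class as well, with 0 at an unadjusted p under 0.05. Over all genes it called 40 higher and 20 lower of 13612 in fibroblasts and 37 and 7 of 12451 in endothelial cells. It called 2 and 1 of 9281 in pericytes and 1 and 0 of 11520 in macrophages. In B cells it called 2 and 0 of 7209, and in T cells 1 and 0 of 5885. At such rates, 0 members called is not read as a result about the members. Over the members the median log2 fold of high-fibre over control-diet libraries was −0.01 in fibroblasts, 0.01 in endothelial cells, 0.01 in pericytes, 0.03 in macrophages, −0.13 in B cells and −0.11 in T cells. Over all genes it was 0.00 in fibroblasts, endothelial cells, pericytes, macrophages and B cells and −0.01 in T cells.

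**Figure D5:**
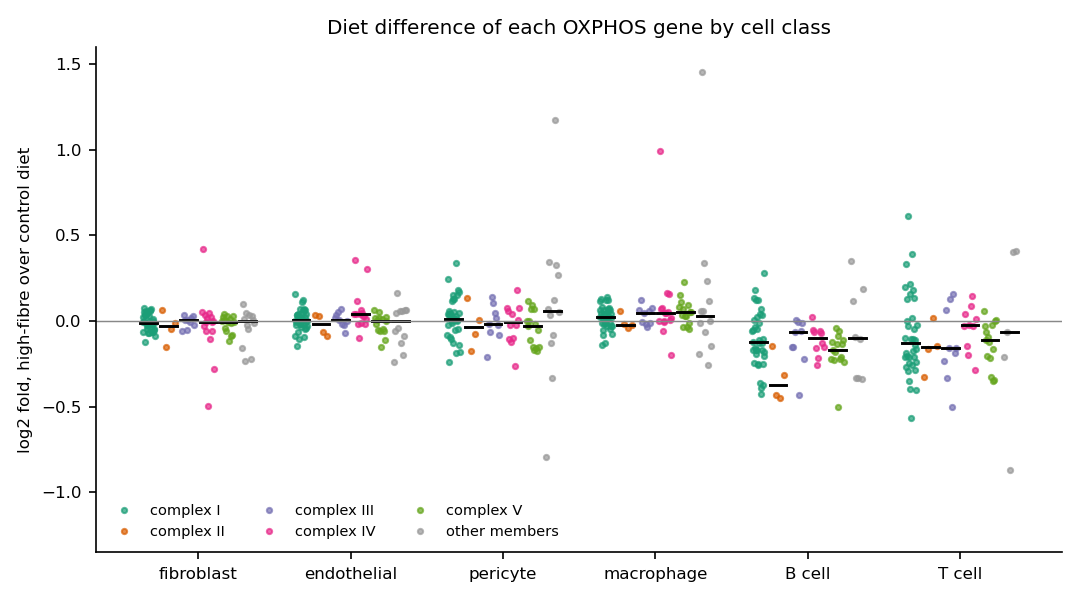
Log2 fold of each member, high-fibre over control-diet libraries, by complex in each tested class, with black bars for the median of each complex. No point passes the adjusted threshold, and the point at 1.46 in macrophages is Ndufa4l2.

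The precision differed between classes. The median standard error of a member's log2 fold was 0.0881 in fibroblasts, 0.0966 in endothelial cells, 0.107 in macrophages, 0.141 in pericytes, 0.216 in B cells and 0.228 in T cells. In fibroblasts 88 of 91 members had a fold within 0.25 of 0, and in endothelial cells 89 of 91. The summed share was 1.69% and 1.81% in high-fibre fibroblasts against 1.76% and 1.78% in control-diet fibroblasts, and 1.78% and 1.97% in high-fibre endothelial cells against 1.81% and 1.93% in control-diet endothelial cells, so the groups overlapped in both. In B cells it was 1.34% and 1.39% in the high-fibre libraries and 1.55% and 1.42% in the control-diet libraries, with no overlap. In simulated counts with a dispersion set at 0.01, the edgeR diet test recovered 29.9% of changes of log2 0.5 in fibroblasts, 6.25% in B cells and 7.46% in T cells. For changes of log2 1 it recovered 83.6%, 46.9% and 48.5%. The changed genes were drawn from all genes above a count limit and not from the members. The dispersion was not taken from these data, so the rates are not those of the members.

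Members whose 2 groups of libraries did not overlap were counted in each class. In macrophages 25 of 91 members were higher in both high-fibre libraries (27.5%, against 15.7% of all genes) and 5 lower in both (5.49%, against 17.1%). In B cells 3 of 82 were higher (3.66%, against 15.4%) and 31 lower (37.8%, against 15.3%), and in T cells 6 of 79 were higher (7.59%, against 16.3%) and 30 lower (38.0%, against 16.6%). Fibroblasts had 5 higher and 9 lower of 91 (5.49% and 9.89%, against 18.0% and 17.9%), endothelial cells 9 and 7 of 91 (9.89% and 7.69%, against 17.9% and 16.9%), and pericytes 9 and 13 of 88 (10.2% and 14.8%, against 17.3% and 17.0%). Members share their total and their biology and are not independent, and with 2 libraries a group an exact permutation test of a single value cannot go below a two-sided p of 0.333.

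The members with an unadjusted p under 0.05 are given here with their adjusted values. In macrophages Ndufa4l2 had 2.34 and 3.26 normalised CPM in the high-fibre libraries and 0.892 and 1.25 CPM in the control-diet libraries, a log2 fold of 1.46 ± 0.442 (adjusted p = 1.00, edgeR). Those levels rest on 24 and 47 UMIs in the high-fibre libraries and 7 and 5 UMIs in the control-diet libraries. Rgs5, a pericyte gene, had 6.72 and 11.4 CPM in the same high-fibre macrophages and 6.93 and 7.60 CPM in the control-diet macrophages, and its part was not tested. In fibroblasts Ndufa4l2 had 125 and 144 CPM in the high-fibre libraries against 167 and 148 CPM in the control-diet libraries, at −0.23 ± 0.102 (adjusted p = 0.694, edgeR). In endothelial cells Cox4i2 had 16.4 and 16.7 CPM in the high-fibre libraries and 13.6 and 12.2 CPM in the control-diet libraries, at 0.36 ± 0.147 (adjusted p = 0.741, edgeR). Ndufaf2, an assembly factor, had 23.0 and 24.5 CPM in high-fibre macrophages and 18.9 and 18.7 CPM in control-diet macrophages, at 0.34 ± 0.129 (adjusted p = 1.00, edgeR). In B cells Atp5g3 had 125 and 131 CPM in the high-fibre libraries and 163 and 211 CPM in the control-diet libraries, at −0.50 (adjusted p = 0.997, edgeR). In T cells Ndufb6, a complex I subunit, had 54.0 and 56.3 CPM in the high-fibre libraries and 85.9 and 71.6 CPM in the control-diet libraries, at −0.56 (adjusted p = 1.00, edgeR). None of these genes passed the adjustment. The 2 diets did not overlap for any of them. They were picked by p-values from the same libraries, so that is no separate support. Without the second high-fibre library, the log2 fold of Cox4i2 in fibroblasts was 0.80. That fit holds 1 high-fibre library and cannot show the spread of its group, so no call is given.

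In pericytes the folds of the named members ran from −0.80 ± 0.570 for Atp5s to 1.17 ± 0.577 for Ndufaf5, an assembly factor at 10.6 and 9.95 CPM in the high-fibre libraries and 3.53 and 6.06 CPM in the control-diet libraries. Ndufaf2 (−0.33), Cox7a1 (−0.26), Ndufa10 (0.25) and Ndufs1 (0.34) lay between, and Ndufa10 turned to −0.22 under the stricter gate. In fibroblasts Cox6b2 (−0.50) and Cox8b (−0.28) stood lowest, and Ndufa2 (0.05), Ndufa9 (0.06) and Cox7a2l (0.10) highest among members whose diets did not overlap. In endothelial cells Ndufaf5 (−0.20), Ndufaf3 (−0.13) and Ndufa9 (−0.10) were opposite to Ndufc2 (0.12) and Ndufa10 (0.16), and Ndufaf5 turned to 0.084 under the stricter gate. In macrophages Ndufaf5 (−0.26), Atp5s (−0.19) and Ndufb3 (−0.13) were opposite to Cox4i2 (0.99). The Cox4i2 fold rests on 15 and 35 UMIs in the high-fibre macrophages and 10 and 2 UMIs in the control-diet macrophages.

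Whether the diet fold differed between cell classes was tested for the 6 pairs of the 4 largest classes with limma on the within-library difference. No member was called in any pair, while over all genes 0.0533% were called for fibroblasts minus endothelial cells, 0% for fibroblasts minus pericytes, 0.0380% for fibroblasts minus macrophages, 0% for endothelial cells minus pericytes, 0.182% for endothelial cells minus macrophages and 0.0644% for pericytes minus macrophages. At an unadjusted p under 0.05 there were 1 to 4 of 90 or 91 members per pair, and the share of all genes under that p is again not given. In simulated counts with a dispersion set at 0.01, this test for fibroblasts minus pericytes recovered 0% of changes of log2 0.5. It recovered 12.7% of changes of log2 1 and 50.8% of those of log2 2, so differences of such sizes can be missed. Here too the changed genes were drawn from all genes above a count limit, so the rates are not those of the members. The lowest adjusted p belonged to Ndufa4l2, at −1.12 ± 0.194 for pericytes minus macrophages (adjusted p = 0.151, limma) and −1.52 ± 0.245 for fibroblasts minus macrophages (adjusted p = 0.180, limma), both resting on the macrophage UMIs given above. With 1 control-diet library left out, that group holds 1 library, so effect sizes alone are given. Without the first, the difference was −0.70 for Ndufa4l2 in fibroblasts minus endothelial cells. It was −1.29 for Cox4i2 in pericytes minus macrophages, where the control-diet library left held 2 macrophage UMIs of Cox4i2. Without the second, the difference was −1.31 for Ndufa4l2 in pericytes minus macrophages.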

How the data were processed

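Heart cells of 4 libraries were analysed. The deposited values are UMI counts per gene and cell barcode, made by the authors with Cell Ranger 3.1.0 on mm10, per the submitters' processing notes, and the smallest barcode held 500 UMIs. Barcodes with at least 1000 UMIs and at most 20% mitochondrial UMIs were kept and gated on 7 markers per class. Counts were summed per library and class. Shares and plain CPM use all UMIs of the class, while CPM in the diet comparisons is TMM-normalised. Diet (high-fibre over control-diet, within a class) and class (with library as a term) were fitted with edgeR 4.0.16 (quasi-likelihood, TMM, minimum count 10, Benjamini-Hochberg adjustment over all genes, threshold 0.05) in R 4.3.3. Diet folds were compared between classes with limma 3.58.1. DESeq2 1.42.0, other filters and gates, and leaving out each library were alternatives, and the code was tested on simulated data. Cells were gated and plotted with Python 3.11.15, pandas 2.3.3 and scipy 1.17.1. Coordinates are from GENCODE M21.

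Genes were named by rule: per diet comparison in the 4 largest classes, up to 3 members at each end of the fold whose diets did not overlap, per class contrast the 3 called members at each end, the isoform sets, the 2 members of highest level per complex, and 2 genes per pathway list, of which 1 is not reported here. Others, such as those of lowest unadjusted p, were picked after their values were seen. Members and lists were chosen with earlier results of these data known.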

Additional observations from a re-analysis of the deposited data

How the results depend on the processing

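Of the alternatives run, counts of called members were equal to the values given or within 1.5 times in 386 cases and moved further in 20. The 386 include the diet counts that were 0 in both fits, which could not move within that limit. Shares of UMIs stayed within their SD in 335 cases and moved further in 113, and medians stayed within the median standard error in 192 and moved in 11. Named class folds kept direction and call in 1128 cases, lost the call in 89 and reversed in 5, and named diet folds kept both in 328 and reversed in 2. Of 87 members and 10849 genes tested, the stricter gate gave 6 members and 1878 genes lower in fibroblasts (27 and 3906 in the main fit). It gave 13 and 1721 lower in endothelial cells, 6 and 1214 higher in pericytes and 5 and 1848 lower in macrophages. In B cells it gave 7 and 2330 higher and 35 and 2157 lower, and in T cells 12 and 2077 higher and 24 and 2140 lower. It reversed the diet folds of Ndufaf5 in endothelial cells (0.084) and Ndufa10 in pericytes (−0.22), lowered the member share to 2.37% in pericytes and 1.49% in T cells, and gave smooth muscle and Schwann cells no value in every library. Library totals alone, added after the data were seen, gave 4 members lower in pericytes (4.4%, against 14.4% of all genes) and 10 higher in T cells (11%, against 17.6%). In macrophages they gave 12 higher and 57 lower (13.2% and 62.6%, against 26.9% and 42.7%), and reversed Cox7b (−0.15), Cox6a1 (−0.055) and Atp5g1 (−0.084). Leaving pericytes out of the mean of the other classes, also added after the data were seen, reversed Ndufa4 in fibroblasts (−0.20) and B cells (−0.55). Of 91 members and 12707 genes tested, it gave 10 members and 3406 genes lower in macrophages, 7 and 3043 higher in B cells and 24 and 3547 lower in T cells. The cause of these changes was not tested.

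With mitochondrial and ribosomal protein genes removed from the totals, the member share was 5.18% in smooth muscle cells, 3.25% in pericytes, 2.69% in NK cells, 2.61% in T cells, 2.52% in monocytes, 2.34% in endothelial cells, 2.18% in Schwann cells, 2.13% in fibroblasts, 2.06% in B cells and 1.94% in macrophages, so T cells moved above endothelial cells. With Malat1 left out, added after the data were seen, it was 4.59% in smooth muscle cells, 3.26% in pericytes, 2.12% in Schwann cells and 1.83% in fibroblasts, and without the deepest 5% of cells 1.52% in T cells. Leaving out 1 library at a time gave 7 to 10 of 91 members higher in B cells, with 2784 to 3200 genes higher over all genes. Diet fits without 1 library leave 1 library in a group, and their effect sizes are given above.

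The labels number 2 libraries per diet without saying what a number shares. With the repeat number as a replicate block, 0 members were called in each class, while over all genes 20 were called in fibroblasts, 80 in endothelial cells, 8 in pericytes, 10 in macrophages, 29 in B cells and 9 in T cells. Across genes, the differences between repeats correlated between diets at 0.114 in fibroblasts, 0.0188 in endothelial cells, 0.0955 in pericytes, 0.291 in macrophages, 0.128 in B cells and 0.125 in T cells. Depth limits B and T cells most, with as few as 64 and 34 cells in a library.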

Other observations

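Diet folds of 3 neighbouring gene lists are given by their counts, with no gene of these lists called by edgeR. The mitochondrially encoded subunits had positive high-fibre over control-diet folds for 13 of 13 genes in T cells (median log2 fold 0.15), 12 of 13 in B cells (0.13), 12 of 13 in pericytes (0.18), 10 of 13 in macrophages (0.08), 9 of 13 in endothelial cells (0.07) and 8 of 13 in fibroblasts (0.02). Over all genes 49.1% to 50.4% of folds were positive in the 6 classes. In pericytes mt-Cytb, the cytochrome b core of complex III, had 4865 and 4722 normalised CPM in the high-fibre libraries and 4380 and 3347 CPM in the control-diet libraries (log2 fold 0.31 ± 0.117, adjusted p = 0.728, edgeR). The nuclear members had medians of −0.11 in T cells, −0.13 in B cells and 0.01 in pericytes. The mitochondrial genes lie on 1 molecule and in cells filtered by their share, so they are not independent.

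Fatty acid oxidation genes had positive diet folds for 14 of 15 genes in macrophages (median 0.21), 13 of 15 in fibroblasts (0.06), 12 of 15 in endothelial cells (0.10) and 10 of 15 in pericytes (0.10), against 6 of 14 in B cells (−0.10) and 6 of 11 in T cells (0.00). Tricarboxylic acid cycle genes had them for 10 of 13 in macrophages (0.11), 9 of 13 in endothelial cells (0.02), 8 of 13 in pericytes (0.03), 6 of 13 in fibroblasts (0.00), 6 of 13 in B cells (−0.01) and 3 of 13 in T cells (−0.18). Acaa2, the last enzyme of the mitochondrial beta-oxidation cycle, had 60.5 and 55.9 CPM in high-fibre macrophages and 39.5 and 38.5 CPM in control-diet macrophages (log2 fold 0.57 ± 0.115, adjusted p = 1.00, edgeR).

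NK cells, described without a test, held 1.91% and 1.91% of UMIs from members in the high-fibre libraries and 2.15% and 2.26% in the control-diet libraries. Neutrophils held 1.09% and 0.997% in the high-fibre libraries and 1.01% and 0.849% in the control-diet libraries. The diets did not overlap in NK cells, and they overlapped in neutrophils.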
